A study of Mus musculus with 20 samples.

Results

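The genes described are 10 secreted ligands of the vascular endothelial growth factor (VEGF), angiopoietin and angiopoietin-like families: Vegfa, Vegfb, Vegfc, Vegfd, Pgf, Angpt1, Angpt2, Angptl1, Angptl2 and Angptl4. They were taken by gene name from a table of 22660 genes, and all 10 had a row. RNA was sequenced from plantaris muscle of 20 mice aged 2 years, with 5 different mice in each of 4 groups. In 2 of the groups mice had synergist ablation, in which part of the gastrocnemius and soleus is cut out so that the plantaris carries more load (mechanical overload, MOV), and in the others a sham operation that only opened the skin. Within each surgery, mice were gavaged with vehicle or with D + Q, a pair of drugs given to kill senescent cells (dasatinib at 5 mg/kg with quercetin at 50 mg/kg), on days 7 and 10 according to the sample labels. The series description gives day 14 for the second gavage of the sham mice. All muscles were collected on day 14 after surgery. Below, each group is named by its treatment and then its surgery, and every mouse is old, so no comparison concerns age.

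VEGF-A is the main growth signal for blood vessels and acts on endothelial cells through the receptor Kdr, while Flt1 binds VEGF-A, VEGF-B and placental growth factor (the product of Pgf). VEGF-C and VEGF-D act through Flt4 and are best known for the growth of lymphatic vessels, and neuropilins (Nrp1, Nrp2) are co-receptors. Angiopoietin-1 activates the endothelial receptor Tek (Tie2) and steadies vessels, and angiopoietin-2 can oppose it. Angiopoietin-like proteins share the family's fold but do not bind Tek, and Angptl4 is a secreted inhibitor of lipoprotein lipase.

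Library totals lay between 17887532 and 26234518 counts. Marker sums are in counts scaled to a library of 1000000 (CPM). Those of muscle fibers were 164284 to 188071 in sham and 89908 to 126851 in MOV mice, which met the label of muscle. No marker on any list was at 0 in all mice of a group. In vehicle MOV against vehicle sham muscle, 10 of 10 endothelial, 5 of 5 lymphatic endothelial and 7 of 7 fibroblast markers rose. So did 8 of 8 macrophage and 5 of 5 tendon cell markers, where 30.7% of all genes rose. The same counts rose with D + Q, beside 34.4% of all genes. With vehicle, 5 of 9 pericyte and smooth muscle markers rose and 1 fell, and 3 of 4 satellite cell markers rose. Of 4 adipocyte markers tested 3 fell, and of 10 muscle fiber markers 1 rose and 5 fell. With D + Q, pericyte and smooth muscle markers had 5 rises and 2 falls, and satellite cell markers 3 and 1. Adipocyte markers had 1 fall, and muscle fiber markers 2 rises and 6 falls. Of the lymphatic markers, 2 with vehicle and 1 with D + Q reached the count minimum of the test only through MOV mice. The same held for 1 tendon cell marker with vehicle. Over vehicle sham and vehicle MOV mice, the summed endothelial level ran from 164 to 213 and from 284 to 339.7 CPM, and the lymphatic level from 8.79 to 17.5 and from 35.6 to 67.1. Fibroblast markers ran from 413 to 598 and from 4634 to 9413 CPM, and macrophage markers from 53.4 to 139 and from 274 to 825. In vehicle MOV mice, mouse 2 had the lowest fibroblast and macrophage sums (4634 and 274) and the highest fiber sum (126851). A higher CPM of a ligand in whole muscle can come from more cells of a type or from more RNA per cell, which cannot be told apart here, and the part of these cell types in the results below was not tested.

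MOV moved the ligands in both directions. Against vehicle sham muscle, Angptl1, Angptl2, Angptl4, Pgf, Angpt2 and Vegfd rose in vehicle MOV muscle, Vegfa and Vegfb fell, and Vegfc and Angpt1 did not pass the test. Thus 8 of 10 passed edgeR's quasi-likelihood test at an adjusted p under 0.05, where 60.5% of the 14601 genes tested did, and the 6 that rose and 2 that fell stand beside 30.7% and 29.8% of all genes. With D + Q, 4 rose (Angptl1, Angptl2, Pgf, Vegfd) and the same 2 fell, so 6 of 10 passed where 65.3% of 14913 genes did, with 34.4% of all genes higher and 30.9% lower. The median log2 fold change over the 10 was 0.68 with vehicle and 0.50 with D + Q, beside -0.015 and 0.023 over all genes tested. Values of MOV and sham mice did not overlap for 5 ligands in each treatment, and this held for 46.5% of all genes with vehicle and 53.1% with D + Q. Scaled to total counts alone, the median of all genes moved to 0.362 and 0.388 and the share of calls that were higher moved from 50.8% to 84.1% with vehicle and from 52.6% to 83.5% with D + Q, so directions below are relative to the bulk of genes.

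**Figure D1:**
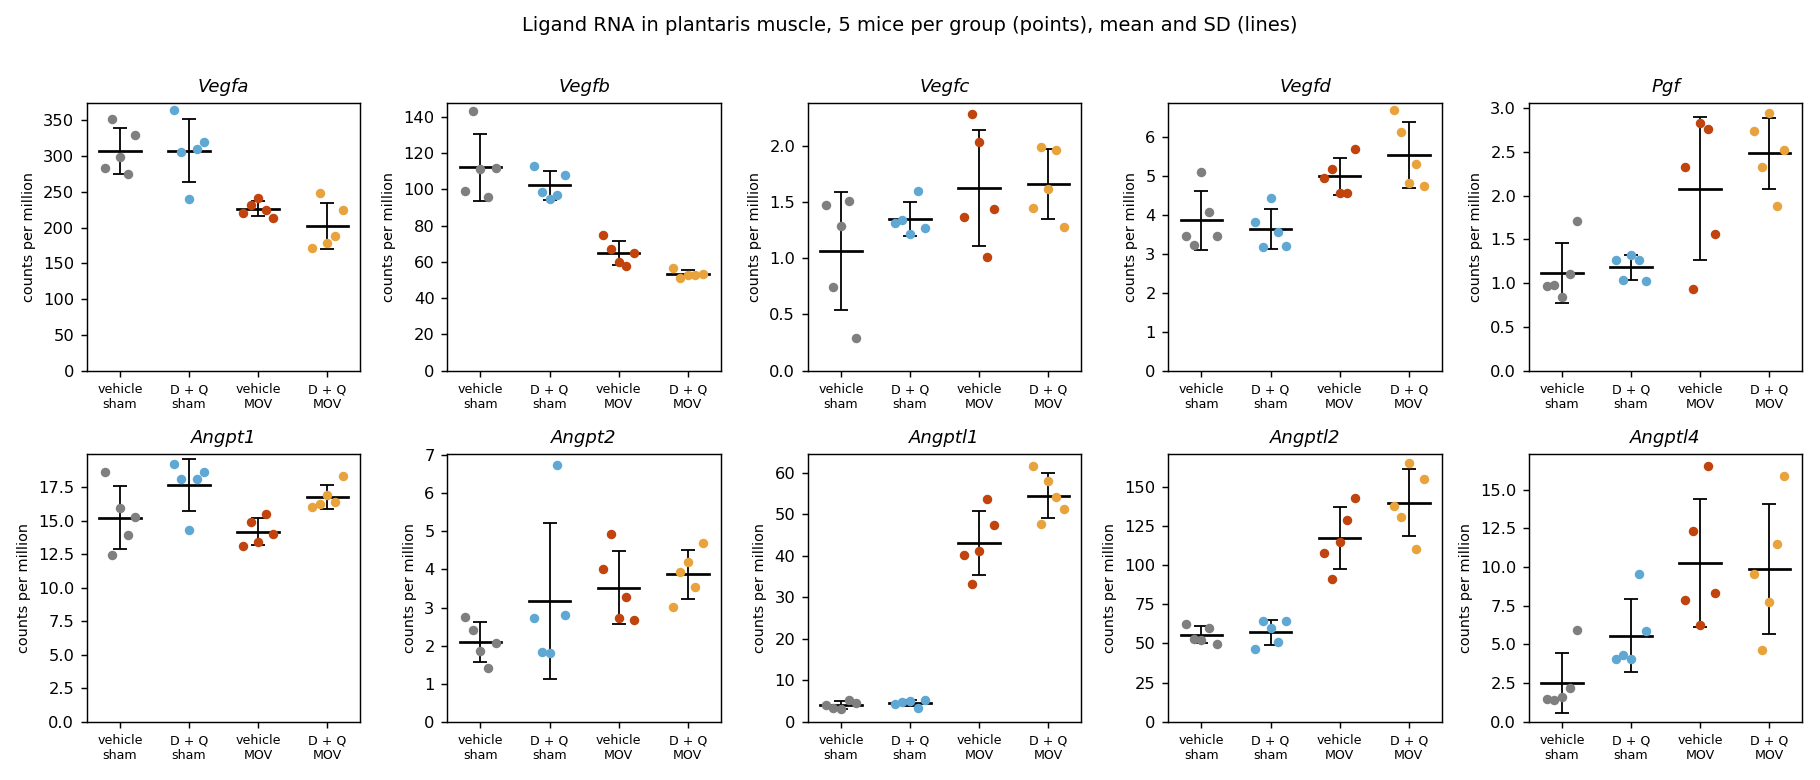
RNA level (CPM, scaled by trimmed mean of M values) of each ligand in each of the 20 mice, as points by group, with the mean and SD of 5 mice as black lines. Angptl1 stood at 3.03 to 5.2 CPM in all sham mice and at 33.2 to 61.5 CPM in all MOV mice, while Vegfb fell from 94.7 CPM or more in sham to 74.6 CPM or less in MOV mice.

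**Figure D2:**
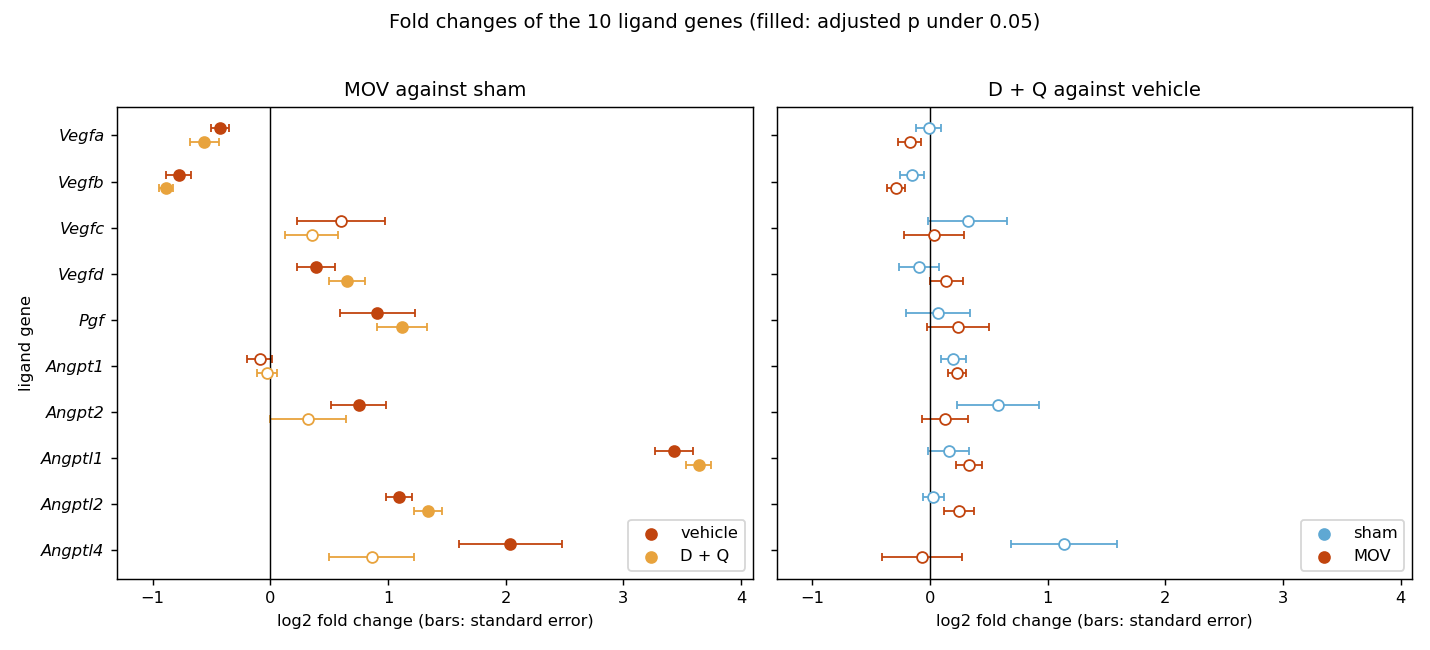
Log2 fold change (points) and standard error (bars) of each ligand between MOV and sham (left) and between D + Q and vehicle (right), with filled points for an adjusted p under 0.05. On the left 8 points with vehicle and 6 with D + Q are filled, and none is filled on the right.

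Bases just upstream of the start site are shown for the ligands called in both treatments with the largest rises and falls, and for Vegfd, the only one with a TATAAA element. The sequences are RefSeq's, on build GRCm38.p6, 250 bases up to the start, 5′ to 3′ in the direction of the gene, and these positions are not to be set against those of GRCm39 given below. Capitals mark GGGCGG (the GC box) or TATAAA (the TATA box) on either strand, and a GC box read on the other strand appears as CCGCCC.
Angptl1, chr1:156838773-156839022, plus strand: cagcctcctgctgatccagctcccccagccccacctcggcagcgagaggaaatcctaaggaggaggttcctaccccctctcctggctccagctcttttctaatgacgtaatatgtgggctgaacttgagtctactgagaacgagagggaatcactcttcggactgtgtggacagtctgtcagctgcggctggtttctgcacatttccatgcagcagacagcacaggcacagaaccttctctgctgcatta
Angptl2, chr2:33215711-33215960, plus strand: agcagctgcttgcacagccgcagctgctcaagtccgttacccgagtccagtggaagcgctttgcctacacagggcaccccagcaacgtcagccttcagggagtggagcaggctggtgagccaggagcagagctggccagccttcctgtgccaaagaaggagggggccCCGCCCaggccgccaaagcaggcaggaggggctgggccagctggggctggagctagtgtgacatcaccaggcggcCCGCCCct
Vegfa, chr17:46032378-46032627, minus strand: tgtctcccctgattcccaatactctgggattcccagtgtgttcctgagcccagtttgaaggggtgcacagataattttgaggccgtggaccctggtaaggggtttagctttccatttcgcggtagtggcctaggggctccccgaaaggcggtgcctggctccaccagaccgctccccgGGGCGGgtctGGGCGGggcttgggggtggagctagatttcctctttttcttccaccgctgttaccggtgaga
Vegfb, chr19:6987652-6987901, minus strand: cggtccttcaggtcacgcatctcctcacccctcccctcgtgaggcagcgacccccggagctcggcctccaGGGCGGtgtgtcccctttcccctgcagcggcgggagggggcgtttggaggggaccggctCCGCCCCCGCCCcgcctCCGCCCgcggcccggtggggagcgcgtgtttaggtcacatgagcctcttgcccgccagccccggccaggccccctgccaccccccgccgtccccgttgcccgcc
Vegfd, chrX:164373272-164373521, plus strand: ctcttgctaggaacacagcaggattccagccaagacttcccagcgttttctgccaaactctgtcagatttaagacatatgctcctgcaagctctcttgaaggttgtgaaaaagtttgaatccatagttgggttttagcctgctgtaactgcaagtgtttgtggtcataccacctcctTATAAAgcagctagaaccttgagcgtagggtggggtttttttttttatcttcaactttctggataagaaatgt
The Vegfb stretch held 4 GC boxes in 76.4% G and C bases, those of Vegfa and Angptl2 held 2 each, and Angptl1, at 54.8% G and C, held none of the motifs searched. In Vegfd the TATA box lay 73 to 68 bases before the start. Over 32851 promoters in the table, 32.7% held a GC box, 12.4% TATAAA and 16.6% ACGTG, the core of the hypoxia response element. ACGTG was found in none of the stretches printed, and 1 copy stood in a second Vegfa window that starts downstream. Bases outside these windows of 250 were not searched, so an element further away would not be seen. The matches are letters only. In all, 7 of the 10 ligands had entries (9 windows), and Angpt1, Angpt2 and Angptl4 had none.

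Vegfa (chr17:46327919-46343309, minus strand, GRCm39) had 283, 351, 298, 275 and 329 CPM in vehicle sham mice 1 to 5 and 220.0, 231, 241, 225 and 214 CPM in vehicle MOV mice. Every vehicle MOV mouse was below every vehicle sham mouse. With D + Q, sham mice had 364, 305, 240.1, 309 and 319.6 CPM and MOV mice 172, 248, 178, 188 and 224 CPM. Here MOV mouse 2 (248 CPM) lay above sham mouse 3 (240.1 CPM), and the other MOV mice lay below all sham mice. Vegfa thus fell by 0.43 on the log2 scale with vehicle (standard error 0.0781, adjusted p = 0.000221, edgeR) and by 0.56 with D + Q (0.122, adjusted p = 0.00145). Scaled to total counts alone these became -0.053 (adjusted p = 0.595) and -0.20 (adjusted p = 0.157), so the fall of Vegfa was a fall relative to other genes.

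Vegfb (chr19:6958447-6965127, minus strand), the ligand of Flt1 associated with tissues that burn fatty acids, had 99.1, 143, 111, 96 and 112 CPM in vehicle sham and 74.6, 67.3, 60.1, 57.7 and 65 CPM in vehicle MOV mice. With D + Q it had 113, 98.4, 94.7, 96.9 and 108 CPM in sham and 56.6, 51.4, 53, 52.9 and 53.1 CPM in MOV mice. In both treatments all MOV mice were below all sham mice, and the D + Q MOV mice spanned only 51.4 to 56.6 CPM. The fall was 0.78 on the log2 scale with vehicle (standard error 0.104, adjusted p = 1.55e-05) and 0.89 with D + Q (0.0604, adjusted p = 9.92e-10). Unlike Vegfa, Vegfb kept its fall when counts were scaled to totals alone, and its log2 change lay between -0.83 and -0.40 with vehicle and between -0.94 and -0.52 with D + Q over all alternatives tried. The log2 ratio of Vegfa to Vegfb within a mouse averaged 1.46 in vehicle sham and 1.80 in vehicle MOV muscle, where the groups did not overlap, and 1.58 and 1.91 with D + Q, where they did.

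Pgf (chr12:85213409-85224564, minus strand) was a low transcript with 13 to 29 counts in vehicle sham mice. It had 0.967, 0.979, 0.838, 1.11 and 1.71 CPM in vehicle sham and 2.33, 0.934, 2.83, 2.76 and 1.56 CPM in vehicle MOV mice. Vehicle MOV mouse 2, which had the lowest macrophage and fibroblast sums, lay within the sham range, as did mouse 5. With D + Q, sham mice had 1.26, 1.04, 1.32, 1.26 and 1.02 CPM and MOV mice 2.74, 2.33, 2.95, 1.88 and 2.52 CPM, with no overlap. Pgf rose by 0.91 with vehicle (standard error 0.322, adjusted p = 0.0233) and by 1.12 with D + Q (0.212, adjusted p = 0.000165) on the log2 scale. Without vehicle MOV mouse 2 the former was 1.11 (adjusted p = 0.00305), and the call was lost without vehicle MOV mouse 3 or 4 or vehicle sham mouse 1 or 3 (0.80 to 0.86).

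Of the lymphatic ligands, Vegfd (chrX:163156240-163185646, plus strand) had 3.45, 3.22, 5.09, 4.08 and 3.47 CPM in vehicle sham and 4.94, 5.19, 4.57, 4.55 and 5.7 CPM in vehicle MOV mice. Only vehicle sham mouse 3 reached the MOV range. With D + Q the values were 3.83, 3.17, 4.44, 3.55 and 3.21 CPM in sham and 6.69, 6.12, 4.83, 5.31 and 4.74 CPM in MOV mice, with no overlap. Vegfd rose by 0.65 on the log2 scale with D + Q (standard error 0.152, adjusted p = 0.00109), while the rise of 0.39 with vehicle (0.16, adjusted p = 0.0489) was lost when any of 7 of the 10 mice was left out, vehicle sham mouse 2 giving the smallest value (0.33). Vegfc (chr8:54530257-54640131, plus strand) was at 0.294 to 1.51 CPM in vehicle sham and 1.01 to 2.28 CPM in vehicle MOV mice, from as few as 5 counts. Its log2 differences of 0.60 (standard error 0.371, adjusted p = 0.172) and, with D + Q, 0.35 (0.228, adjusted p = 0.193) did not pass the test. Both passed when scaled to total counts alone (0.97, adjusted p = 0.0325, and 0.71, adjusted p = 0.0108), so whether Vegfc passed depended on the scaling. With vehicle, only 4 sham mice but all 5 MOV mice had the minimum of 10 counts. Vegfc thus entered that test through MOV mice, which favours a rise.

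Among the 5 VEGF receptors and co-receptors, Flt4 and Nrp2 rose in both treatments and Nrp1 only passed the test with D + Q. Nrp2 was at 7.48 to 10.7 CPM in vehicle sham and 16.6 to 24.1 CPM in vehicle MOV mice, and at 8.88 to 12.8 and 22.6 to 26.4 CPM with D + Q. It rose by 1.18 with vehicle (standard error 0.123, adjusted p = 1.29e-06) and by 1.20 with D + Q (0.101, adjusted p = 1.37e-08) on the log2 scale, with no overlap of groups in either. Flt4, the receptor of VEGF-C and VEGF-D, rose by 0.60 (adjusted p = 0.0175) and 0.69 (adjusted p = 0.00783). Its groups overlapped, with vehicle MOV mouse 5 (3.68 CPM) below 4 of the 5 vehicle sham mice (3.96 to 4.49 CPM) and D + Q MOV mice 2 and 3 (4.43 and 3.93 CPM) below the highest D + Q sham mouse (4.89 CPM). Nrp1 differed by 0.19 with vehicle (standard error 0.11, adjusted p = 0.158) and rose by 0.67 with D + Q (0.118, adjusted p = 0.000176), and the test of the difference between treatments gave 0.45 with an unadjusted p of 0.0145 (adjusted p = 0.791). Kdr differed by 0.14 and 0.16 and did not pass, and with total counts alone it did (0.52 in each treatment), as did Nrp1 with vehicle (0.57). Flt1 differed by -0.16 with vehicle and fell by 0.26 with D + Q (adjusted p = 0.0201), and both signs turned when scaled to total counts alone (0.21 and 0.10). The median of all genes then stood at 0.362 and 0.388, above both values of Flt1.

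**Figure D3:**
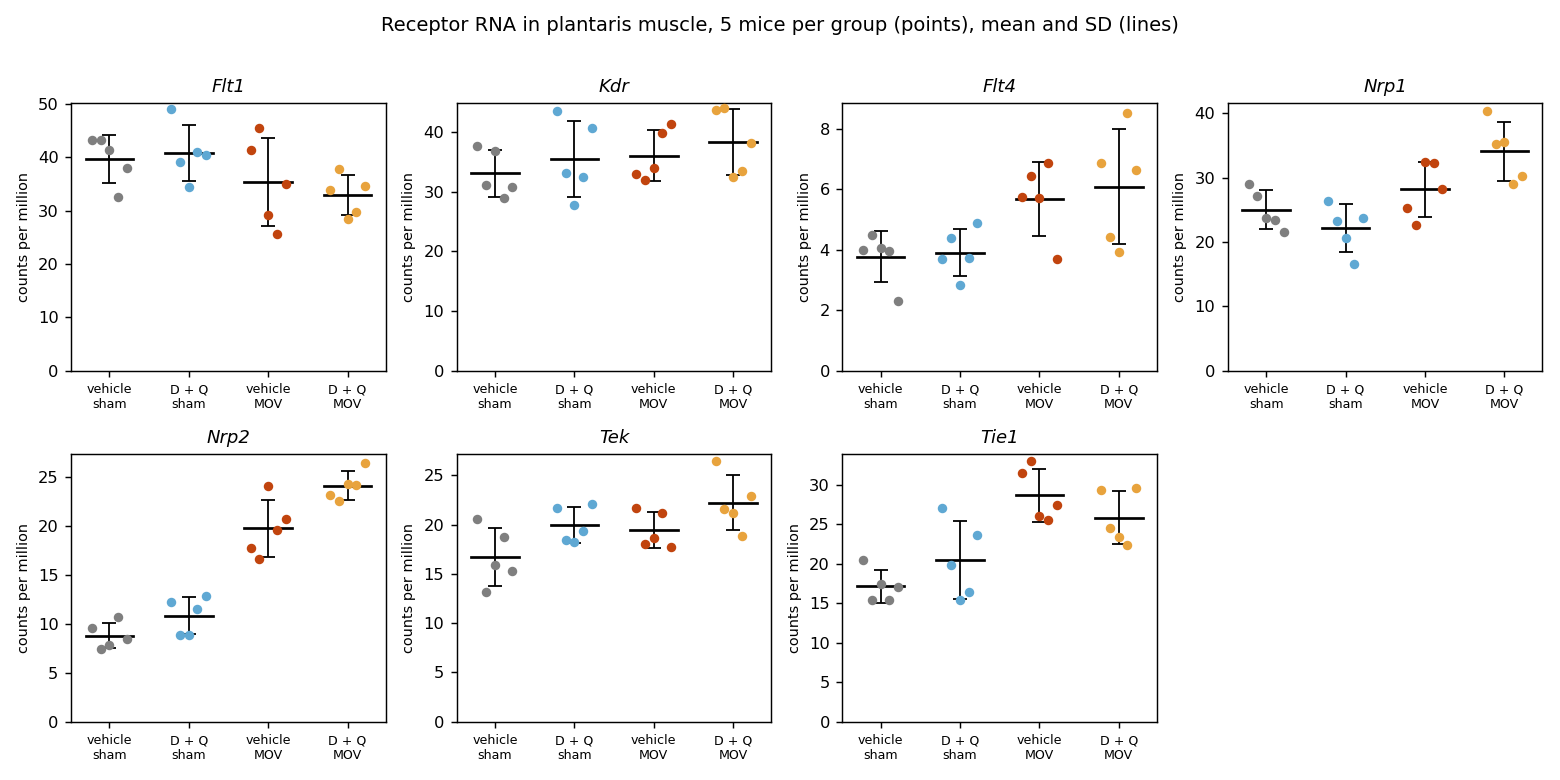
RNA level (CPM) of the VEGF receptors Flt1, Kdr and Flt4, the co-receptors Nrp1 and Nrp2 and the angiopoietin receptors Tek and Tie1 in each mouse (points), with the mean and SD of 5 mice per group (lines). Nrp2 separates MOV from sham mice in both treatments (7.48 to 12.8 against 16.6 to 26.4 CPM), while Kdr overlaps in all groups.

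Angpt1 (chr15:42288058-42540417, minus strand) was at 12.4 to 18.6 CPM in vehicle sham and 13.1 to 15.5 CPM in vehicle MOV mice, and at 14.3 to 19.2 and 16 to 18.3 CPM with D + Q. It differed between MOV and sham by -0.089 (standard error 0.107, adjusted p = 0.495) and -0.029 (0.0854, adjusted p = 0.783). Scaled to total counts alone, the differences turned to 0.29 and 0.34 and passed the test (adjusted p = 0.0317 and 0.00312), below the shift of all genes. Angpt2 (chr8:18739202-18791603, minus strand) had 2.76, 2.42, 1.87, 1.4 and 2.06 CPM in vehicle sham and 4.02, 4.93, 2.73, 3.28 and 2.66 CPM in vehicle MOV mice. Its highest sham mouse lay just above the lowest 2 MOV mice. With D + Q, sham mice had 2.73, 1.83, 1.81, 6.75 and 2.8 CPM and MOV mice 3.01, 3.94, 4.19, 3.53 and 4.69 CPM. D + Q sham mouse 4, at 6.75 CPM, exceeded every other mouse of the study, and the other D + Q sham mice lay below all D + Q MOV mice. Angpt2 rose by 0.75 with vehicle (standard error 0.234, adjusted p = 0.0122) and differed by 0.32 with D + Q (0.32, adjusted p = 0.404). Without D + Q sham mouse 4, the latter was 0.80 (adjusted p = 0.00247). The test of the difference between treatments gave -0.46 (standard error 0.408, adjusted p = 0.936). Of the exon bases of Angpt2, 70.7% are shared with Mcph1 on the other strand, whose level was 4.29 to 4.93 CPM in the group means, and since use of strand in the counting is not given in the sources used here, the Angpt2 values are uncertain.

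Per mouse, the log2 ratio of Angpt2 to Angpt1 was -2.75, -2.36, -3.08, -3.31 and -2.89 in vehicle sham and -1.71, -1.60, -2.30, -2.24 and -2.40 in vehicle MOV mice. The groups met at sham mouse 2 and MOV mouse 5. The means differed by 0.83 with vehicle and by 0.52 with D + Q (-2.65 in sham and -2.13 in MOV), where D + Q sham mouse 4 at -1.42 lay above all MOV mice. Of the receptors, Tie1 rose by 0.75 with vehicle (adjusted p = 1.32e-05), from 15.4 to 20.5 CPM in sham to 25.6 to 33 CPM in MOV mice, and by 0.39 with D + Q (adjusted p = 0.0411), with overlap. Tek, the receptor of both angiopoietins, differed by 0.22 (adjusted p = 0.104) and 0.20 (adjusted p = 0.0574) and did not pass, and with total counts alone it did (0.61 and 0.57).

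The largest change of any ligand was that of Angptl1 (chr1:156666132-156688648, plus strand), a secreted glycoprotein of the angiopoietin-like family. It had 4.14, 3.22, 3.03, 5.13 and 4.53 CPM in vehicle sham and 40.1, 33.2, 41.1, 53.7 and 47.3 CPM in vehicle MOV mice. With D + Q it had 4.31, 4.87, 4.93, 3.3 and 5.2 CPM in sham and 61.5, 47.5, 57.9, 54.2 and 51.2 CPM in MOV mice. The lowest MOV mouse of the study (33.2 CPM, vehicle MOV mouse 2) was above the highest sham mouse (5.2 CPM). The rise was 10.8-fold with vehicle (log2 3.43, standard error 0.16, adjusted p = 2.54e-09) and 12.5-fold with D + Q (log2 3.64, 0.106, adjusted p = 1.09e-13), and ranked 51 and 4 by p-value among all genes tested. Angptl1 lies inside Ralgps2, which runs on the opposite strand and rose by 1.21 (adjusted p = 0.018) and 1.44 (adjusted p = 7.41e-05) on the log2 scale. They share no annotated exon bases, while 16.4% of the exon bases of Angptl1 are shared with Gm37802, at 0.214 CPM or less in every mouse.

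Angptl2 (chr2:33105946-33138252, plus strand), a secreted factor linked to inflammation, had 62.4, 53.1, 52.1, 60.1 and 49.9 CPM in vehicle sham and 108, 91, 115, 129 and 143 CPM in vehicle MOV mice. With D + Q, sham mice had 46.5, 64.2, 60.1, 50.7 and 64.2 CPM and MOV mice 138, 131, 165, 110.2 and 155 CPM. Groups were apart in both treatments. The rise was 2.13-fold with vehicle (log2 1.09, standard error 0.11, adjusted p = 1.3e-06) and 2.53-fold with D + Q (log2 1.34, 0.119, adjusted p = 6.54e-07). Without vehicle MOV mouse 2, the lowest of its group for both genes, the log2 changes with vehicle were 3.54 for Angptl1 and 1.19 for Angptl2. Angptl2 likewise lies inside a gene on the opposite strand, Ralgps1, which differed by -0.19 (adjusted p = 0.333) and -0.25 (adjusted p = 0.192).

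Angptl4 (chr17:33992724-34000804, minus strand) had 1.47, 1.38, 1.61, 2.21 and 5.95 CPM in vehicle sham and 7.87, 12.3, 6.27, 16.5 and 8.32 CPM in vehicle MOV mice. The groups were apart, with vehicle sham mouse 5 just under the lowest MOV mouse. With D + Q it had 4.04, 4.32, 4.05, 9.57 and 5.86 CPM in sham and 9.54, 4.62, 7.74, 11.5 and 15.9 CPM in MOV mice, and these groups overlapped. It rose 4.12-fold with vehicle (log2 2.04, standard error 0.437, adjusted p = 0.00212), and with D + Q the log2 difference of 0.86 (0.362, adjusted p = 0.0615) did not pass. Without D + Q sham mouse 4 or D + Q MOV mouse 2 the latter was 1.15 (adjusted p = 0.0123) or 1.06 (adjusted p = 0.0116), and DESeq2 gave an adjusted p of 0.0371. The difference between the treatments was itself -1.21 on the log2 scale (standard error 0.594, unadjusted p = 0.0565, adjusted p = 0.855), so the response of Angptl4 to MOV was not shown to differ between them.

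Angptl4 protein acts on lipoprotein lipase, whose gene Lpl fell by 0.81 in each treatment (adjusted p = 0.00236 and 2.86e-06), from 661 to 1089 CPM in sham mice to 376 to 736 CPM in MOV mice. Scaled to total counts alone, the difference of Lpl with vehicle was -0.44 (adjusted p = 0.0515). The log2 ratio of Angptl4 to Lpl was -9.15, -9.62, -9.12, -8.40 and -7.34 in vehicle sham and -6.55, -5.64, -6.10, -4.60 and -5.50 in vehicle MOV mice. These groups were 3.05 apart in the mean and did not overlap. In D + Q sham muscle the ratio averaged -7.27, between the vehicle sham mean of -8.73 and the D + Q MOV mean of -5.63, and the sham and MOV values overlapped with D + Q.

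**Figure D4:**
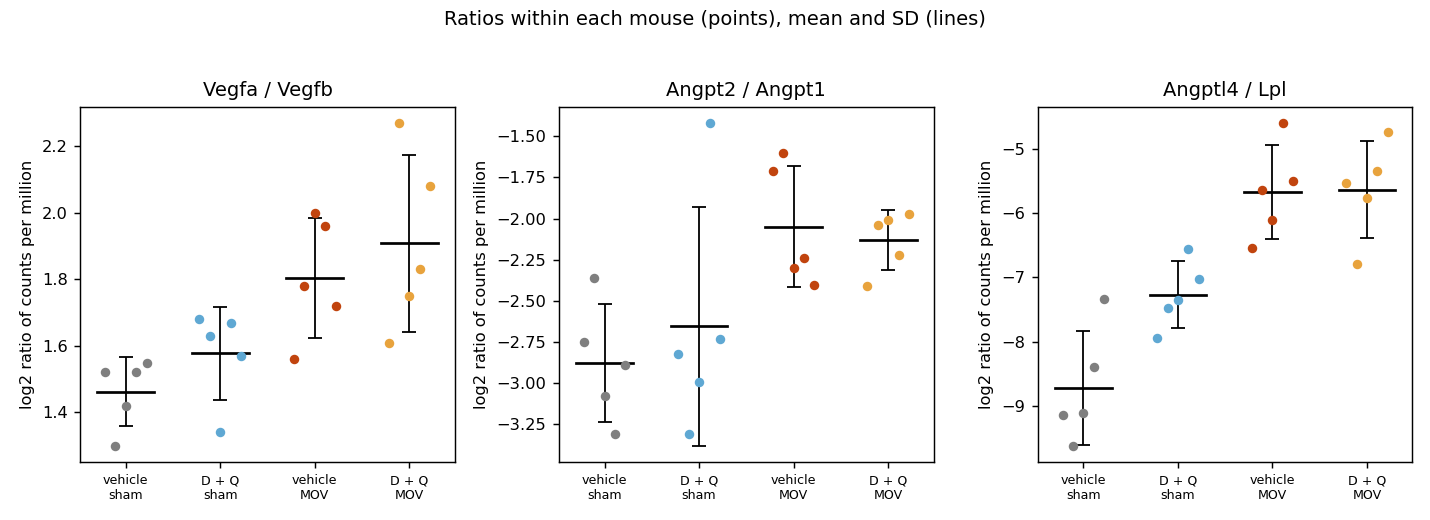
Log2 ratio of CPM within each mouse (points) for Vegfa to Vegfb, Angpt2 to Angpt1 and Angptl4 to Lpl, with the mean and SD of 5 mice per group (lines). The Angptl4 to Lpl ratio averages -8.73 in vehicle sham, -7.27 in D + Q sham, -5.68 in vehicle MOV and -5.63 in D + Q MOV muscle.

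Of other angiopoietin-like genes, Angptl8 was too low to test (0.389 CPM or less in every mouse). Angptl7 fell by 0.49 with vehicle (adjusted p = 0.00876) and by 1.11 with D + Q (adjusted p = 0.00678), and Angptl6 differed by -0.37 with vehicle (adjusted p = 0.095) and fell by 0.78 with D + Q (adjusted p = 0.00017). With total counts alone and vehicle, Angptl6 stood at 0.0074 and Angptl7 at -0.11 and neither passed.

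Compared per kilobase of exon, so that levels of different genes can be set side by side, Vegfa led in every group, with 71.5 ± 7.38 CPM per kilobase (SD, n = 5) in vehicle sham and 52.6 ± 2.4 in vehicle MOV muscle. Lengths were those of all annotated exons of a gene, not of the transcripts expressed, so the order of genes depends on the annotation. The limit stated for Angpt2 above holds here too. In vehicle sham muscle Vegfb followed at 34.5 ± 5.67 and Angptl2 at 7.3, both apart from their neighbours, and Angptl1 was at 1.41. In vehicle MOV muscle Vegfb (20 ± 2.03), Angptl2 (15.4 ± 2.62) and Angptl1 (15.2 ± 2.73 CPM per kilobase) overlapped. In D + Q MOV muscle Angptl1 was second in the mean at 19.2 ± 1.93, ahead of Angptl2 (18.4 ± 2.8) and Vegfb (16.4 ± 0.588), again with overlap of neighbours. Before division by length, Angptl2 (mean 139.9 CPM) was ahead of Angptl1 (54.4 CPM) in that group. The lowest in vehicle MOV muscle were Angpt2 (0.736), Pgf (0.712) and Vegfc (0.568 CPM per kilobase), and in D + Q MOV muscle Pgf (0.849), Angpt2 (0.808) and Vegfc (0.581). Neighbours among these 3 overlapped in both groups, and the next above them, Vegfd, lay apart from its neighbour in each.

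**Figure D5:**
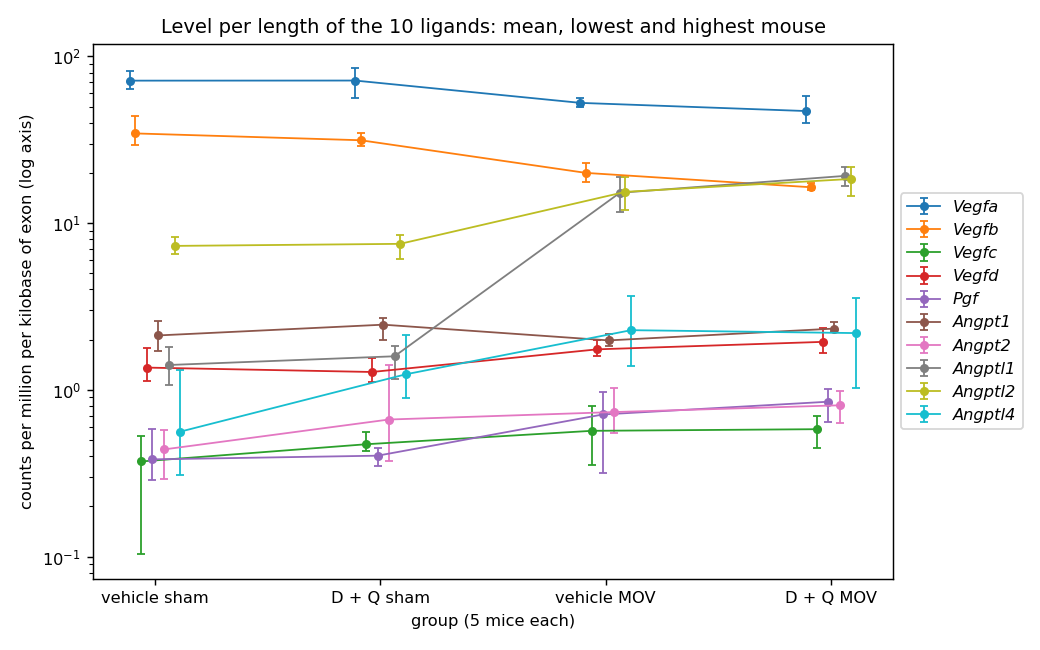
Level of each ligand per kilobase of exon (CPM per kilobase, log axis) in the 4 groups, as the mean of 5 mice with bars from the lowest to the highest mouse. Angptl1 climbs from 1.41 in vehicle sham to 15.2 in vehicle MOV muscle and meets Angptl2 and Vegfb, while Vegfa stays on top in all groups.

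D + Q changed no ligand past the test. In MOV muscle 0 of 10 ligands passed edgeR's test, as 0% of 15238 genes did, with 3 at an unadjusted p under 0.05, as were 8.79% of all genes, and DESeq2 also called 0. These 3 were Vegfb, at 57.7 to 74.6 CPM with vehicle and 51.4 to 56.6 CPM with D + Q (log2 -0.29, standard error 0.0765, unadjusted p = 0.00179, adjusted p = 0.523), Angpt1 and Angptl1. Angpt1 was at 13.1 to 15.5 CPM with vehicle and 16 to 18.3 CPM with D + Q (log2 0.23, standard error 0.078, adjusted p = 0.523). Vegfb and Angpt1 were the 2 ligands whose groups did not overlap, as was the case for 1.5% of all genes. Angptl1 stood at 33.2 to 53.7 CPM with vehicle and 47.5 to 61.5 CPM with D + Q (log2 0.33, standard error 0.112, adjusted p = 0.523), with overlap, and at 0.25 (adjusted p = 0.796) without vehicle MOV mouse 2. The other 7 differed by -0.17 (Vegfa) to 0.25 (Angptl2), with standard errors of 0.0986 to 0.338 and adjusted p-values of 0.583 to 0.972. The summed macrophage markers of D + Q MOV mice ran from 604 to 721 CPM and the fibroblast markers from 8345 to 11318 CPM.

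In sham muscle, 0 of 10 ligands passed with D + Q, beside 0.215% of 13926 genes, and 1 was at an unadjusted p under 0.05, as were 10.2% of all genes, with 0 called by DESeq2, which gave an adjusted p for 8 of them. No ligand had groups apart, where 2.12% of all genes did. The 1 was Angptl4, at 1.38 to 5.95 CPM with vehicle and 4.04 to 9.57 CPM with D + Q (log2 1.14, standard error 0.447, unadjusted p = 0.0297, adjusted p = 0.433). Vehicle sham mouse 5 alone lay within the range of the treated mice, and without it the difference was 1.73 (adjusted p = 0.012) and passed. That mouse also had the highest Pgf (1.71 CPM) and the lowest Vegfc (0.294 CPM) of its group. Of genes on lists described below, it was the highest for Pdk4 (746 CPM), Ucp3 (119 CPM), Cpt1a (9.19 CPM) and Ppara (16.6 CPM). It was the lowest for Cpt1b (312 CPM), and other PPAR targets lay both high and low in it. A link of these values with its Angptl4 was not tested. Angpt2 differed by 0.58 (standard error 0.346, adjusted p = 0.601), with D + Q sham mouse 4 as the high value, and the other 8 ligands by -0.15 to 0.32. For the interaction of surgery and treatment, 0 of 10 ligands passed, beside 0.0127% of 15700 genes, with 0 at an unadjusted p under 0.05 in edgeR, where 5.71% of all genes were, and 0 calls by DESeq2. Apart from Angptl4 and Angpt2, the interaction values lay between -0.29 (Vegfc) and 0.23 (Vegfd).

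Most genes on a list of 8 connected with these ligands rose with MOV. Not all of them act on a ligand, as Lpl is on the list as the target of Angptl4. Of 8, 7 rose and 1 fell with vehicle, where 30.7% of all genes rose and 29.8% fell, and 6 rose and 1 fell with D + Q, beside 34.4% and 30.9%. Adamts3, the protease that cleaves VEGF-C, is among them, and no sham mouse had as many as 10 counts of it, so that it entered the test through MOV mice alone and its rise was favoured by the count minimum. Without it, 6 of 7 rose with vehicle and 5 of 7 with D + Q. The largest rises were those of Ccbe1, a cofactor in the maturation of VEGF-C (log2 2.39, standard error 0.253, adjusted p = 1.41e-06, and 2.77 with D + Q, adjusted p = 1.23e-07), and Svep1, an extracellular protein of lymphatic development (2.58, 0.295, adjusted p = 3.4e-05). With D + Q, Adamts3 had 2 to 8 counts in sham and 18 to 44 counts in MOV mice, a log2 rise of 2.54 (adjusted p = 3.81e-05). The gene that fell was Lpl. The lymphatic endothelial markers stated above rose too, as did the endothelial, fibroblast, macrophage and tendon cell markers. A link of these genes with any of these cell types was not tested.

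Of 16 regulators of ligand transcription, 1 rose and 9 fell with vehicle, and 2 rose and 9 fell with D + Q. The 10 called with vehicle stand beside 60.5% of all genes and the 11 called with D + Q beside 65.3%, and the median log2 fold change was -0.34 and -0.47. With total counts alone 5 rose and 3 fell, and 6 rose and 6 fell. Hif1a, the oxygen-sensitive factor that drives Vegfa transcription, rose by 1.53 (standard error 0.128, adjusted p = 3.31e-07) and 1.67 (0.0745, adjusted p = 8.67e-12). Vhl, which marks Hif1a protein for degradation, differed by 0.30 with vehicle (adjusted p = 0.0876, and 0.68 with an adjusted p of 0.00216 with total counts alone) and rose by 0.77 with D + Q (adjusted p = 7.3e-06). Ppargc1a, a coactivator of mitochondrial genes that also drives Vegfa, fell by 0.93 (adjusted p = 0.00109) and 0.74 (adjusted p = 0.0115), and with total counts and D + Q it was at -0.38 (adjusted p = 0.1). Rxra, the partner of the PPAR receptors, fell by 0.89 (adjusted p = 7.31e-08) and 0.84 (adjusted p = 6.58e-09), and Ppara by 0.74 (adjusted p = 0.0055) and 1.13 (adjusted p = 2.17e-07). With total counts alone Ppara was at -0.37 with vehicle (adjusted p = 0.135).

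Of 11 hypoxia-inducible targets, 4 rose and 3 fell with vehicle, where 30.7% of all genes rose and 29.8% fell, and 4 rose and 5 fell with D + Q, beside 34.4% and 30.9%. With total counts alone, 6 rose and 2 fell in each treatment. The median log2 fold change of these targets was -0.11 with vehicle and 0.13 with D + Q. Adm, the vessel-dilating peptide adrenomedullin, rose by 1.53 (standard error 0.296, adjusted p = 0.000388) and 0.74 (adjusted p = 0.025), Slc2a1 (a glucose transporter) rose by 0.51 with vehicle (adjusted p = 0.000895) and P4ha1 (collagen prolyl hydroxylase) by 0.26 with D + Q (adjusted p = 0.00198). P4ha1 was also apart with vehicle, at 36 to 45.3 CPM in sham and 45.6 to 56.6 CPM in MOV mice. With D + Q, Slc2a1 was at 9.86 to 11.9 CPM in sham and 10.7 to 14 CPM in MOV mice, with overlap. The glycolytic genes Pgk1 (-0.71 and -0.69, adjusted p = 1.53e-06 and 4.81e-08) and Ldha (-0.62 and -0.58, adjusted p = 2.16e-06 and 7.23e-07) fell in both treatments. Of the PPAR targets, the class to which Angptl4 belongs, 2 rose and 6 fell of 10 tested with vehicle, and 2 rose and 8 fell of 11 with D + Q, beside the same shares of all genes, with a median of -0.44 and -0.65. With total counts alone, 2 rose and 3 fell, and 2 rose and 7 fell. Cpt1a rose by 1.06 in each treatment (adjusted p = 0.000185 and 1.89e-07) and Plin2, a coat protein of lipid droplets, by 0.28 with vehicle (adjusted p = 0.0024). With D + Q the rise of Plin2 was 0.17, with overlap of groups. The muscle isoform Cpt1b fell by 0.79 (adjusted p = 5.27e-06) with vehicle and Acadvl by 0.68 (adjusted p = 1.99e-05). With D + Q the largest falls were those of Ucp3 (1.59, adjusted p = 4.96e-07) and Pdk4 (0.93, adjusted p = 0.000157). Ucp3 also fell with vehicle, by 0.97 with overlap of groups, and Pdk4 differed by -0.14 there. Cpt1b and Acadvl were apart with D + Q too. Cpt1b was then at 317 to 357 CPM in sham and 159.9 to 198 CPM in MOV mice. Acadvl was at 351 to 447 and 211 to 248 CPM. Over the genes of these lists and the receptors that were tested, D + Q against vehicle called 0 of 55 in MOV (7 at an unadjusted p under 0.05, beside 8.79% of all genes, and 0 by DESeq2) and 0 of 53 in sham muscle (13 at an unadjusted p under 0.05, beside 10.2% of all genes). DESeq2 called 1 in sham muscle, Ppargc1b (log2 -0.56, adjusted p = 0.0213).

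For ligands called in both treatments, the genes with the most similar profile over the 20 mice were sought among 15699 others, by the root mean square difference of log2 CPM centred on each gene's mean. Vegfb was nearest to Atp5a1, a subunit of mitochondrial ATP synthase (0.0943), and Atpaf1, which helps to assemble it (0.104), where the spread of Vegfb itself was 0.461. Vegfa was nearest to Jmjd4 (0.13) and Trim63, a muscle ubiquitin ligase (0.132, own spread 0.312). Angptl1 was nearest to Ccdc80 (0.191) and Igsf10 (0.193), against an own spread of 1.76, and Angptl2 to Tram1 (0.142) and Txndc5 (0.151, own spread 0.624). Pgf was nearest to Samd4b and Cyp51 (both 0.255, own spread 0.583), and Vegfd to Ikbkb (0.151) and Itgav (0.181, own spread 0.309). For their spread, neighbours of Vegfa, Pgf and Vegfd were less close than those of Vegfb, Angptl1 and Angptl2. These are descriptions over mice that share a surgery effect, and nothing about shared control follows from them.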

How the data were processed

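Plantaris RNA was sequenced in 20 mice. Per the labels and methods, the authors aligned reads with STAR 2.7.8a to GRCm39 and deposited estimated counts per gene from Partek's expectation-maximization quantifier, without normalization. Of the values, 29.8% were not whole, and all were rounded. Use of strand is not given in the sources used here. Each of the 22660 rows summed to 10 or more. Within groups, the variance between libraries was at least 6.53 times that of counting for all pairs, and every library was kept as a mouse of its own. P-values set a group difference against the spread between these mice, which was estimated with information shared over all genes tested.

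Rounded counts were tested with edgeR (version 4.0.16, in R 4.3.3) by its quasi-likelihood test with the robust option, after TMM normalization. A gene entered where 5 or more mice of the fit had 10 counts or more, and p-values, all two-sided, were adjusted by Benjamini-Hochberg over all genes tested. Pairs of groups were fitted on their 10 mice, and the interaction of surgery and treatment on the 20. CPM used TMM factors over the 20 mice. Standard errors are the log2 fold change over the square root of F. Exons and positions came from GENCODE on GRCm39, promoters from RefSeq on GRCm38.p6. Alternatives were DESeq2 1.42.0, scaling by RLE or by total counts only, 2 further count minimums, a joint fit of all mice, a block for the mouse number and leaving out each mouse. The test was also run on simulated data.

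Named are all 10 ligands, the receptors, the 2 genes of the most similar profile, and from each other pathway list up to 2 largest rises and 2 largest falls among called genes whose groups do not overlap. Ralgps1, Ralgps2, Mcph1, Gm37802, Angptl8 and Ppargc1b fall outside this rule and were chosen once their values were known. Marker lists are given by counts and sums. The ligands, lists and tests were chosen with earlier results of these data known.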

Additional observations from a re-analysis of the deposited data

Results flagged for a closer look

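Within groups of 5 mice, the highest or lowest value was checked for a gap to its neighbour above 0.71 of the group's range, over 88 groups of the ligands, their receptors and the ratios. Of these, 5 had such a value, where about 1 in 20 groups, here 4.4, would by chance. Angpt2 was at 6.75 CPM in D + Q sham mouse 4, and at 1.81 to 2.8 CPM in the other mice of the group. Angptl4 was at 5.95 CPM in vehicle sham mouse 5, against 1.38 to 2.21 CPM in the others. Flt4 in the same mouse was the lowest, at 2.3 CPM against 3.96 to 4.49 CPM. Angpt1 was at 14.3 CPM in D + Q sham mouse 3, against 18.1 to 19.2 CPM. The log2 ratio of Vegfa to Flt1 was 2.35 in D + Q MOV mouse 1, against 2.64 to 2.71 in the others. The first 2 of these values decide calls: without them, Angpt2 with D + Q and Angptl4 in sham muscle pass the test, as given in the report.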

How the results depend on the processing

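The number of ligands called stayed within 1.5 times its main value under every alternative run, except that leaving out vehicle sham mouse 5 gave 1 in place of 0 for D + Q in sham muscle. With mice left out it ranged from 6 to 7 for MOV against sham with vehicle, from 6 to 8 with D + Q, from 0 to 0 for D + Q against vehicle in MOV, from 0 to 1 in sham and from 0 to 0 for the interaction. Genes called over the whole table were 0 for D + Q against vehicle in MOV, 11 by DESeq2, 2 with the replicate block and 0 to 2 with mice left out. In sham muscle they were 30, and 49 with total counts only, 67 with no count minimum, 47 with a minimum of 10 over the mice together, 133 by DESeq2, 19 with all mice in one fit, 19 with the block and 2 to 74 with mice left out. For the interaction they were 2, 1 with the block and 2 to 3 with mice left out. The cause of these shifts was not tested.

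Signs turned with total counts only for Angpt1 between MOV and sham (0.29 with vehicle and 0.34 with D + Q) and for Vegfa between D + Q and vehicle in sham muscle (0.024, and 0.0014 with all mice in one fit). With mice left out, signs turned for differences that had not passed the test: Angpt1 in MOV against sham with D + Q (-0.10 to 0.003), Vegfc (-0.10 to 0.18) and Angptl4 (-0.30 to 0.17) for D + Q in MOV, Vegfa (-0.084 to 0.069), Vegfd (-0.17 to 0.027), Pgf (-0.013 to 0.27) and Angptl2 (-0.017 to 0.089) for D + Q in sham, and Pgf (-0.027 to 0.30), Angpt1 (-0.06 to 0.091) and Angpt2 (-0.61 to 0.019) in the interaction. Vegfd with vehicle lost its call with no count minimum (adjusted p = 0.0789), the minimum over the mice together (0.069) and the block (0.0717).

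Mice share a number across groups only by label. The number is the order in the sample titles, and the authors' column names give sham and MOV mice of the same number different numbers. Same-numbered mice deviated together (correlation over 0.1) in 1, 0, 1 and 0 of 5 pairs in the 4 comparisons, which gave no sign of pairs by number. With 5 pairs and a fixed cut, this cannot exclude pairs or a shared batch. With the block, ligands called were 7 with vehicle and 7 with D + Q between MOV and sham, where Angptl4 passed with D + Q (0.85, adjusted p = 0.00266). Depth limits Vegfc and Pgf, at 5 to 33 and 13 to 29 counts in sham mice.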
